A study of Homo sapiens with 6 samples.

Results

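The genes described here are the zinc finger genes of the autosomes other than chromosome 19. A gene was a member if it was protein-coding in GENCODE 44 (hg38), lay on chromosomes 1 to 18 or 20 to 22, and had a symbol made of ZNF and a number. The rule gave 226 members of 476 genes with such symbols, the others being 240 genes on chromosome 19 and 10 on the X and Y chromosomes. A member was called in a domain where its transcription start lay inside an H3K9me3 domain, and the call was made in each library separately.

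H3K9me3, the trimethylation of histone H3 at lysine 9, was mapped by chromatin immunoprecipitation and sequencing (ChIP-seq) in MCF10.DCIS.com, an established human breast line that forms lesions resembling ductal carcinoma in situ. Control cells had received the empty pSLIK-neo lentiviral vector, and RAB5A cells the same inducible vector with RAB5A, a small GTPase of early endosomes. All cells were antibiotic-selected stable lines grown as monolayers, so that each condition was a single selected population. Each condition was assayed once with antibody ab176916 (replicate 1) and once with ab8898 (replicate 2), which gave 4 libraries with a domain list, 2 for each condition. The 2 libraries within a condition differed in antibody, and no label states that they came from separate cultures, so every p-value below covers only the spread between these libraries. The question of the comparison was whether RAB5A expression changed the H3K9me3 domains. Domain lists carry no read counts and no expression values, so the read depth per library is not known here (the methods of the study state only an average over samples) and the cell identity could not be checked against marker genes.

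Most of these genes encode proteins with tandem C2H2 zinc fingers, each finger being a short loop held by a zinc ion that contacts DNA. In a large subfamily the fingers follow a KRAB domain, which binds TRIM28 (KAP1). TRIM28 in turn brings the H3K9 methyltransferase SETDB1, and transposable elements are well known targets. The family grew by tandem duplication, many of its genes lie in clusters, and such clusters are themselves known to carry H3K9me3 in many cell types.

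The promoters of 3 members are shown because they span the situations met below: ZNF18, a gene with no neighbouring member that lay just inside a domain, ZNF722, the first gene of the longest array inside a domain, and ZNF282, which belongs to the longest array outside every domain. Each is the 250 bases before the RefSeq transcription start (GRCh38.p14, 5′ to 3′ on the strand of the gene), at chr17:11997476-11997725 (minus strand), chr7:63998599-63998848 (plus strand) and chr7:149195296-149195545 (plus strand). Capitals mark CG dinucleotides.
ZNF18: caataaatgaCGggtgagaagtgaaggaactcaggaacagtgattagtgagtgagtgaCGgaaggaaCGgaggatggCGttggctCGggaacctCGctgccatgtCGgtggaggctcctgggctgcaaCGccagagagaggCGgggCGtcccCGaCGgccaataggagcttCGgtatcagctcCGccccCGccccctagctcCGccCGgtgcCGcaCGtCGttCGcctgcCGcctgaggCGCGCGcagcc
ZNF722: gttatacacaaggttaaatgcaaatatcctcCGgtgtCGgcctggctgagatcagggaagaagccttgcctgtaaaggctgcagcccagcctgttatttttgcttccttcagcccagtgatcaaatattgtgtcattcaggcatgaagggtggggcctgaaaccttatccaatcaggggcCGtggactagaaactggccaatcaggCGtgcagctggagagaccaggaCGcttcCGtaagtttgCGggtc
ZNF282: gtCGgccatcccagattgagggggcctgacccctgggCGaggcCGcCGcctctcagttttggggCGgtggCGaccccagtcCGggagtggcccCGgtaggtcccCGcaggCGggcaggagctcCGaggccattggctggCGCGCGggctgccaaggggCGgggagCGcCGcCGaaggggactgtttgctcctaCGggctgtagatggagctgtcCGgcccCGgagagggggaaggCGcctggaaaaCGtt
The ZNF722 promoter held 7 CG dinucleotides and was 52% G or C. The ZNF18 promoter held 25 (65.2% G or C) and the ZNF282 promoter 23 (72%). The median over the 35116 promoters of the RefSeq table was 11, and 93.9% held at least 1 CG.

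The 4 libraries gave the same answer for every member. Of the 226 members, 27 (11.9%) started in a domain in control ab176916, and the same 27 did so in control ab8898, RAB5A ab176916 and RAB5A ab8898. The other 199 members started in no domain of any library, and 0 members had a mixed pattern. Among all 17635 protein-coding genes of the same chromosomes the share in a domain was 2.56% in control ab176916, 2.81% in control ab8898, 2.60% in RAB5A ab176916 and 2.77% in RAB5A ab8898. In those background genes 2.35% were in a domain in all 4 libraries and 0.601% in 1 to 3 of them. The share of members thus exceeded the share of all genes by 9.26 percentage points (SD 0.123, n = 4 libraries), in every library (exact two-sided sign-flip test, p = 0.125, the smallest that 4 libraries allow).

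With the domain lists as deposited, no zinc finger gene differed in its call between control and RAB5A cells. The share was 11.9% in each control library and 11.9% in each RAB5A library, a difference of 0 points (exact permutation test over all 6 labellings, two-sided, p = 1). With 2 libraries against 2 this exact test cannot go below p = 0.333. The background for such a switch was itself low: 0.0454% of all genes (8 genes) were in both RAB5A domain lists and neither control list, and 0.0170% (3 genes) showed the opposite pattern, so that a count of 0 among the members was near the background. The calls depended on the weakest domains. When domains scoring below the lower quartile of their list were left out, 18 members were in a domain in all 4 libraries. ZNF248 and ZNF25, which share a chromosome 10 domain, then kept their call with either antibody in control cells and lost it with either antibody in RAB5A cells. Under the same filter 0.0567% of all genes (10 genes) showed this pattern, among them all 6 protein-coding genes of that domain, ZNF248 and ZNF25 included. The opposite pattern, in both RAB5A lists and neither control list, was shown by 37 genes, with no member among them. The difference in member share was then -0.442 points (exact permutation test, p = 1).

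Domains were scarce on these chromosomes. Control ab176916 had 63 of them covering 6.41% of the sequence, control ab8898 61 covering 6.19%, RAB5A ab176916 64 covering 6.42% and RAB5A ab8898 62 covering 6.29%. In every library 8 of these domains held all 27 members. Those 8 domains spanned 18.4 Mb in control ab176916, 22 Mb in control ab8898 and 18.6 Mb in each RAB5A library.

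**Figure D1:**
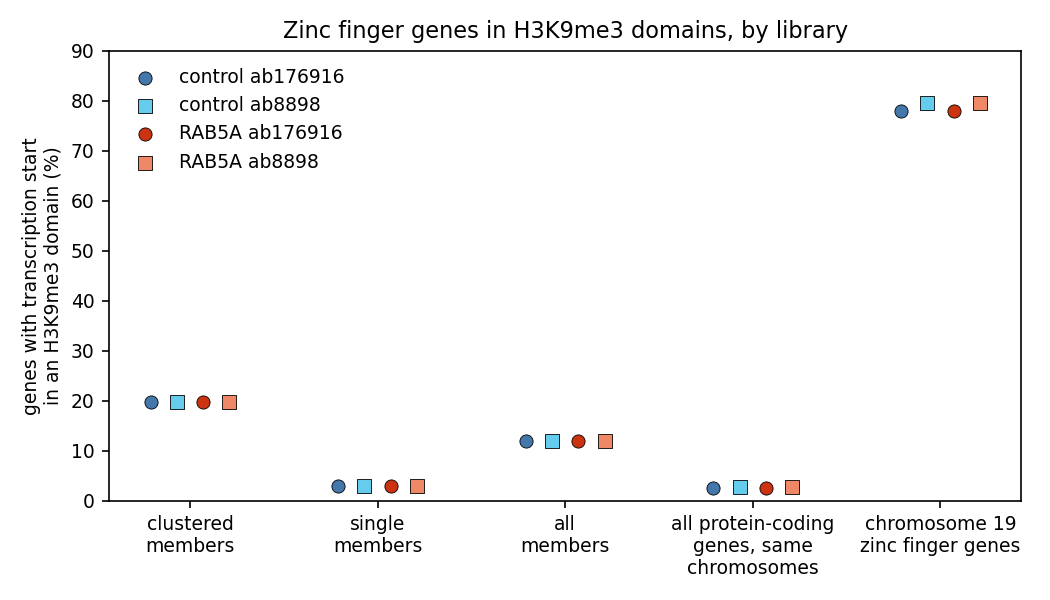
The plot gives the percentage of genes with their transcription start in an H3K9me3 domain (vertical axis), with 1 point for each of the 4 libraries in each gene set (horizontal axis). Clustered members sit at 19.7% and single members at 2.88% in every library, and the chromosome 19 zinc finger genes at 77.9 to 79.6%.

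Clustered genes were in domains far more often than single genes. A member was counted as clustered where another member started within 500 kb, which held for 122 of the 226. Of these, 24 (19.7%) started in a domain in each of the 4 libraries, against 3 of the 104 single members (2.88%). The share of single members was thus close to that of all protein-coding genes. The difference of 16.8 points was the same in every library (SD 0, n = 4, exact two-sided sign-flip test, p = 0.125, the smallest possible), and it did not differ between RAB5A and control (0 points, exact permutation test, p = 1). The test covers the spread between libraries and not the choice of genes, since neighbouring genes share a domain. With 250 kb as the limit for a neighbour, the difference was 10.4 points.

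Counted by locus, the size of the contrast depended on the counting rule. Members chained by gaps of at most 500 kb formed 134 loci, of which 30 held several genes and 104 held 1. At least 50% of the genes were in a domain in 5 of the 30 multi-gene loci (16.7%), against 3 of 104 single-gene loci, a difference of 13.8 points in each library. It was 17.1 points when a locus with any gene in a domain was counted, and 7.95 points when domains scoring below the lower quartile of their list were left out. The share did not follow the number of genes in a locus: 3 of 12 pairs, 0 of 9 loci of 3 to 4 genes and 2 of 9 loci of 5 or more genes were in a domain by this count. Of the members nearest to the 500 kb limit on the inside, ZNF267 (431 kb from its neighbour), ZNF843 (369 kb) and ZNF92 (367 kb) were in a domain in 4 libraries and ZNF367 (359.8 kb) in none. On the outside, ZNF778 and ZNF276 (502.7 kb), ZNF3 (524.1 kb) and ZNF775 (530.4 kb) were in none.

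The members in domains came from 7 of the 19 chromosomes that had members. Chromosome 7 stood first with 14 of its 34 members (41.2%), while 3.55 to 3.87% of all its protein-coding genes were in a domain and domains covered 9.41 to 10.7% of it. Chromosome 1 followed with 5 of 20 (25%). Chromosome 5 had 2 of 9 (22.2%), chromosome 10 had 2 of 12 (16.7%) and chromosome 17 had 1 of 9 (11.1%). Of all protein-coding genes, 4.75 to 4.85% were in a domain on chromosome 1 and 2.95 to 3.40% on chromosome 5. The share was 2.05 to 2.74% on chromosome 10 and 1.60 to 2.11% on chromosome 17.

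On chromosome 16 the members stood closer to the background than on chromosome 7. Of its 29 members 2 (6.90%) started in a domain, near the 4.08 to 5.13% of all its genes. It was the most covered of the chromosomes with in-domain members, at 21.3 to 22.1%. As on chromosome 7, the share of all genes lay below the share of sequence covered. Chromosome 8 had 1 of 15 (6.67%), where 1.42 to 1.71% of all its genes were in a domain. The remaining 12 chromosomes held 98 members and none of them was in a domain, among them 18 members on chromosome 3, 12 on chromosome 9 and 11 on chromosome 12. Of all genes, 0.648 to 0.740% were in a domain on chromosome 3, 0.644 to 2.06% on chromosome 9 and 1.25 to 1.64% on chromosome 12. A count of 0 was thus near the background on those chromosomes. The highest such share on the 12 was 7.89%, on chromosome 18. Chromosome 4, with 7 members, had no domain in any library.

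Without chromosome 7 the members still exceeded the background. Of the remaining 192 members 13 (6.77%) were in a domain in all 4 libraries, with 11 of 93 clustered members (11.8%) and 2 of 99 single ones (2.02%). The excess over all genes was then 4.15 points and the difference between clustered and single members 9.81 points. The chromosomes were compared by counts alone, with no test, because the genes of a chromosome share few domains.

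**Figure D2:**
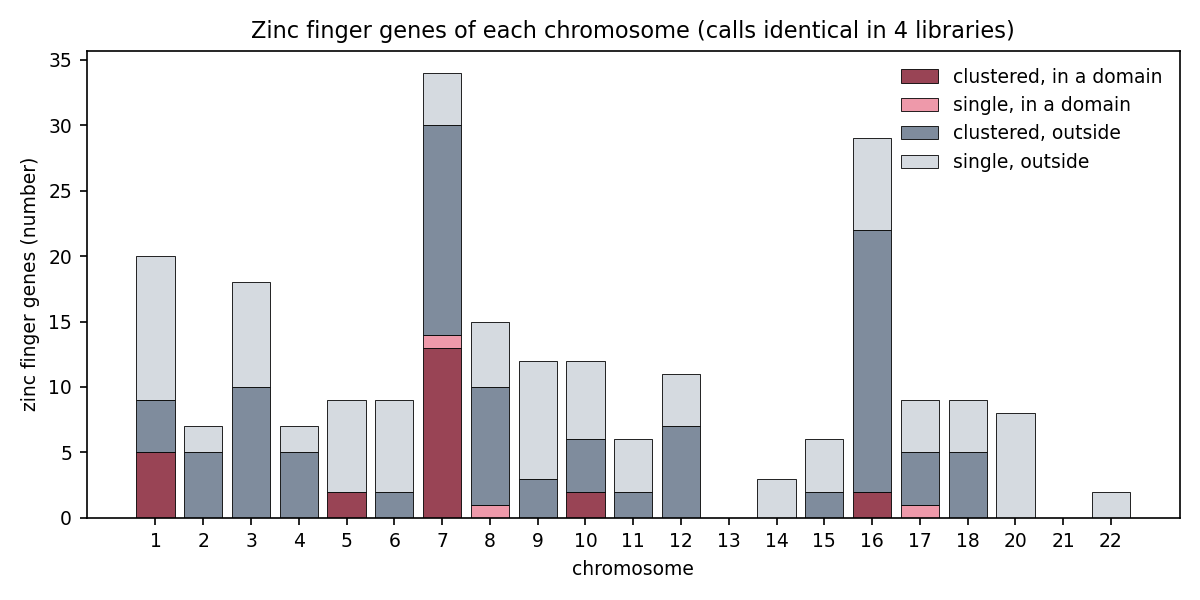
Each bar gives the number of zinc finger genes (vertical axis) on a chromosome (horizontal axis), split into clustered and single genes in or outside a domain. The calls were identical in the 4 libraries; chromosome 7 holds 14 of the 27 genes in domains, and 12 chromosomes with members have none.

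The longest array in a domain lay on the long arm of chromosome 7. The domain chr7:63000001-65600000 had the same borders in all 4 libraries. From the centromere outwards it held ZNF722, ZNF727, ZNF735, ZNF679, ZNF736, ZNF680, ZNF107, ZNF138, ZNF273, ZNF117 and ZNF92. These made up 11 of the 12 protein-coding genes that started there (91.7%). The remaining gene was ERV3-1, which encodes the envelope protein of an endogenous retrovirus. In score, the domain stood at percentile 66.7 of the control ab176916 list, 67.1 of control ab8898, 63.3 of RAB5A ab176916 and 68.4 of RAB5A ab8898. The score has no stated unit and was therefore read only as a rank within its own list, 100 being the highest.

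The genes of this array shared features that the rule had not used. A KRAB pattern was found in 10 of the 11 encoded proteins, ZNF117 being the exception. This was not particular to arrays in domains. In the 10-gene locus of distal chromosome 7, outside every domain, only ZNF467 lacked the pattern. All 7 genes of the locus at the end of chromosome 12, also outside, had it. In the 7-gene locus of chromosome 3, also outside, only ZNF445 and ZNF197 had it. The number of C2H2 patterns ran from 2 in ZNF138 to 16 in ZNF107. Their promoters were poor in CG, with 0 in ZNF679, 1 in ZNF117, 6 in ZNF727 and ZNF736 and 21 in ZNF273, the highest of the array. ZNF92 lay closest to the border, 226 kb inside it, and ZNF736 deepest, at 1293 kb.

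The other chromosome 7 domain, next to the centromere, held ZNF713, ZNF479 and ZNF716 among 13 protein-coding genes. Its borders moved between libraries. It ran over chr7:55600001-59400000 in control ab176916 (3.8 Mb), chr7:55800001-58400000 in control ab8898 (2.6 Mb), chr7:55600001-59600000 in RAB5A ab176916 (4 Mb) and chr7:55800001-59600000 in RAB5A ab8898 (3.8 Mb). It was thus longer in the RAB5A than in the control library of each antibody, by 1 or more of the 200 kb bins, without a change in the genes it held. Its score percentile was 78.2 and 69.7 in the control libraries and 86.1 and 85.5 in the RAB5A libraries. How many other domains separated in this way was not counted, and an exact test over 2 against 2 libraries cannot go below p = 0.333. ZNF713 had no other member within 500 kb, its nearest being 1252 kb away. It started 287 kb inside the border with ab176916 and 87.5 kb inside with ab8898, in either condition.

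On chromosome 1, the members ZNF695, ZNF670, ZNF669, ZNF124 and ZNF496 lay in the domain chr1:246600001-248800000, the same in all 4 libraries. This domain was gene-rich: 60 protein-coding genes started in it, of which 45 encode olfactory receptors, the odorant-binding receptors that are mostly silent outside the nose. It was also among the weakest of each list, at score percentile 5.13 in control ab176916, 1.32 in control ab8898, 10.1 in RAB5A ab176916 and 5.26 in RAB5A ab8898. ZNF496, known as a partner of the histone methyltransferase NSD1, was without the KRAB pattern, and its promoter held 31 CG, the highest among members in domains. The neighbouring pair ZNF672 and ZNF692 started 0.0382 and 0.0591 Mb beyond the border in every library, closer to a domain than any other member outside.

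The chromosome 5 domain, chr5:178200001-179600000 in all 4 libraries, held ZNF454 and ZNF879 among 15 protein-coding genes. It also held ZFP2, ZNF354A, ZNF354B and ZNF354C, zinc finger genes whose symbols fall outside the rule. Its score percentile was 19.2 in control ab176916, 32.9 in control ab8898, 26.6 in RAB5A ab176916 and 32.9 in RAB5A ab8898. The chromosome 10 domain, chr10:36800001-38600000 in all 4 libraries, held ZNF248 and ZNF25 among 6 protein-coding genes, with ZNF33A and ZNF37A beside them. Its score percentile was 28.2 and 27.6 in the control libraries and 22.8 and 19.7 in the RAB5A libraries, while its borders were unchanged. How many other domains separated in this way was not counted.

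The chromosome 16 locus was the only one that a domain border divided. It ran over 13 members from ZNF48 to ZNF267, and ZNF843 and ZNF267 at its centromeric end started in a domain. The domain began at chr16:31400001 with ab176916 and at chr16:31200001 with ab8898, in either condition, and ended at 34000000 in all 4 libraries. ZNF843 therefore lay 43.2 kb inside the border with ab176916 and 243 kb inside it with ab8898. ZNF668 and ZNF646, the nearest members outside, lay 0.326 Mb from the domain with ab176916 and 0.126 Mb with ab8898. This border thus differed between the antibodies and was the same in control and RAB5A cells with each antibody. Antibody and replicate cannot be told apart in this design. The KRAB pattern was present in ZNF267 and absent from ZNF843, and it was present in 4 of the 11 genes outside the border (ZNF747, ZNF688, ZNF785 and ZNF689).

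Besides ZNF713, the single members in a domain were ZNF596 and ZNF18. ZNF596 started 232 kb from the first base of chromosome 8, where its domain also began. That domain ended at 1800000 in 3 libraries, with 8 protein-coding genes, and at 6200000 in control ab8898, with 12. ZNF18 started only 2.525 kb inside the end of the domain chr17:9800001-12000000 (9600001 in control ab8898), the closest of all 27 members to a border. Domain borders fall on multiples of 200 kb, so this distance is far below the resolution of the lists.

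**Figure D3:**
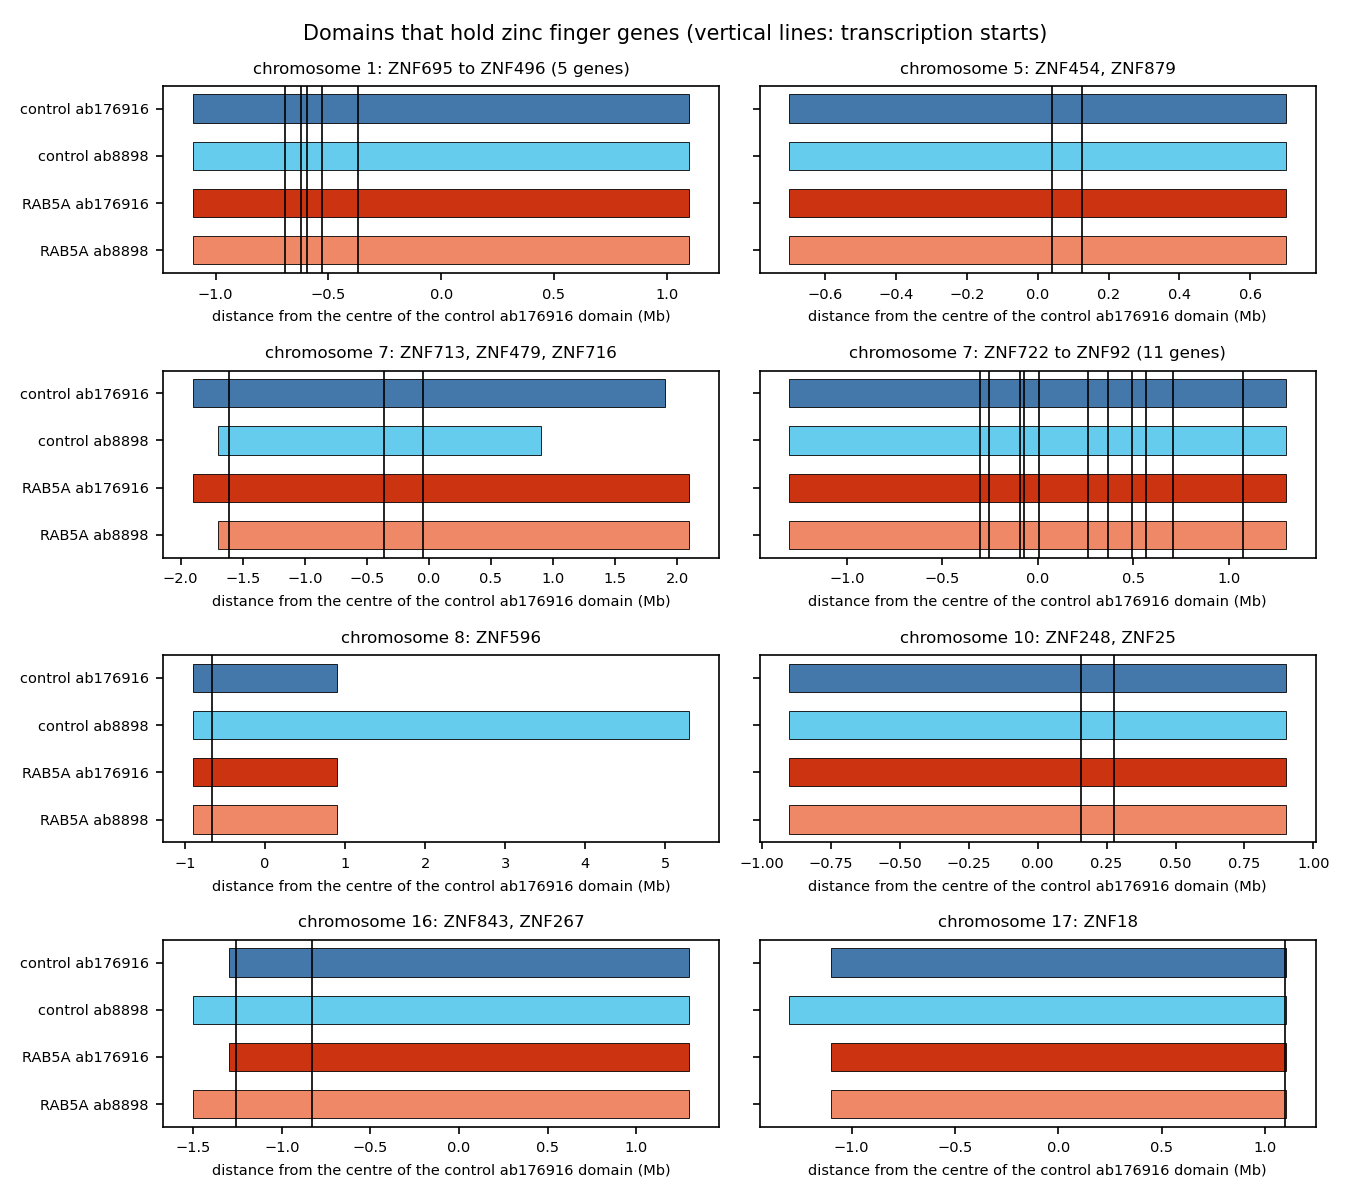
Horizontal bars show the extent of the 8 domains that hold members in each of the 4 libraries (rows), as the distance in Mb from the centre of the control ab176916 domain, and vertical lines mark transcription starts of the members. On chromosomes 1, 5 and 10 and around the 11-gene array of chromosome 7 the borders coincide in all 4 libraries; ZNF18 stands at the very end of its domain.

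Most calls did not rest on the exact border. Of the 27 members in domains 24 lay more than 200 kb, the length of 1 bin, from both borders in every library, and 3 (ZNF18, ZNF843 and ZNF713) lay closer in at least 1 library. The distance to the nearer border was the same in all 4 libraries for 22 members, and its median was 659 kb. Members outside domains were mostly remote from them. Clustered members outside lay a median of 4.97 Mb from the nearest domain (4.84 Mb in control ab8898) on the chromosomes that had a domain. Single members outside lay a median of 22.9 and 21.4 Mb away with ab176916 (control and RAB5A) and 21.0 and 25.4 Mb away with ab8898. Within 1 Mb of a domain were 14 of 98 clustered members outside with ab176916 and 15 with ab8898, and 3 of 101 single members in each library.

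Of the 9 loci of 5 or more genes, 3 had at least 1 gene in a domain. The 3 largest loci outside every domain are described here, and the role of locus size was not tested. On distal chromosome 7, 10 genes from ZNF786 to ZNF862 lay 2.36 Mb from the nearest domain in 3 libraries and 2.96 Mb in RAB5A ab8898. They include ZNF282, whose promoter is shown above, and ZNF746, known as the parkin substrate PARIS. On chromosome 3, the 7 genes ZNF445, ZNF852, ZNF660, ZNF197, ZNF35, ZNF502 and ZNF501 lay 40.1 Mb from a domain in 3 libraries and 17.3 Mb in RAB5A ab176916. ZNF445 is known as a regulator of genomic imprinting. At the end of chromosome 12, the 7 genes ZNF605, ZNF26, ZNF84, ZNF140, ZNF891, ZNF10 and ZNF268 lay 1.16 Mb from a domain in all 4 libraries. ZNF10 is the source of the KRAB domain commonly fused to Cas proteins for gene silencing. ZNF217, a gene on chromosome 20 that is often amplified in breast cancer and that was singled out here after its values were seen, lay 0.790 Mb from a domain in all 4 libraries.

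Members in domains more often encoded a protein with the KRAB pattern. The search covered only a short pattern in the canonical transcript, so a protein without it may still hold a KRAB domain. The KRAB pattern F-[ST]-x-x-E-W was searched in the protein translated from the canonical GENCODE transcript, and it occurred in 23 of the 27 members in domains (85.2%) and in 66 of the 199 outside (33.2%). In other protein-coding genes of these chromosomes it occurred in 60 of 17343 (0.346%). Clustered members in domains had it in 21 of 24 (87.5%), against 46 of 98 clustered members outside (46.9%), so the excess was also present among clustered genes. The members in domains without the pattern were ZNF496, ZNF117, ZNF843 and ZNF18.

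Split the other way, 23 of 89 members with the pattern (25.8%) and 4 of 137 without it (2.92%) were in a domain. Of all protein-coding genes of these chromosomes, 2.56 to 2.81% were in a domain. In these counts the share was higher with clustering and with the pattern, but the 2 were not separated by a test. The share was 21 of 67 (31.3%) for clustered members with the pattern, 2 of 22 (9.09%) for single members with it, 3 of 55 (5.45%) for clustered members without it and 1 of 82 (1.22%) for single members without it. Without chromosome 7 the shares were 10 of 64 (15.6%) with the pattern and 3 of 128 (2.34%) without. The 3 clustered members in domains without the pattern, ZNF117, ZNF496 and ZNF843, each shared a domain with members that had it. ZNF713, a single member with the pattern, shared its domain with ZNF479 and ZNF716. These are counts over genes that share domains and evolutionary origin, and no test was made over genes.

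**Figure D4:**
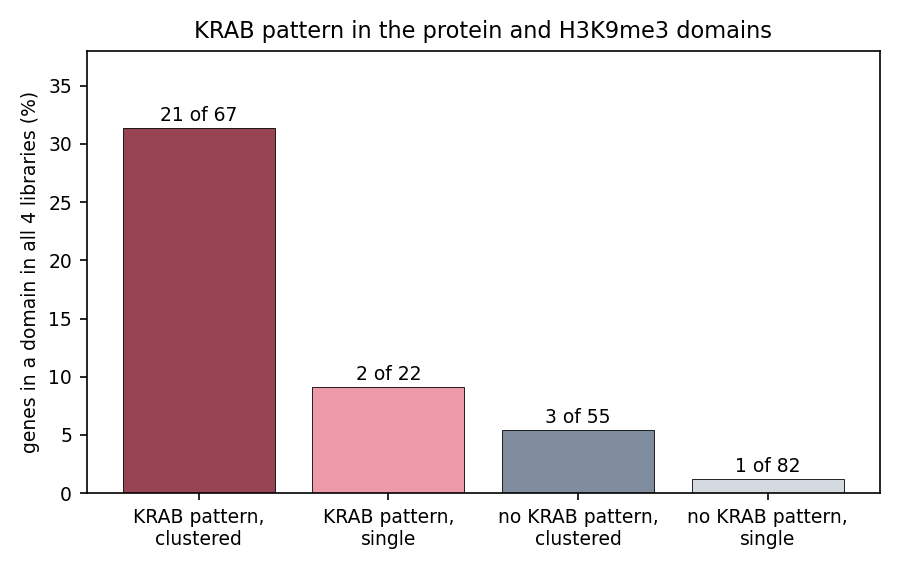
Bars give the percentage of members in a domain in all 4 libraries (vertical axis, from 0) for clustered and single genes with and without the KRAB pattern (horizontal axis), with the number of genes above each bar. The share is 31.3% for clustered genes with the pattern and at most 9.09% in the other 3 groups.

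The number of fingers did not separate the groups. The C2H2 pattern C-x(2,4)-C-x(12)-H-x(3,5)-H was found in 217 of 226 members, and the median was 9 for members in domains (range 1 to 16) and 9 for members outside (range 0 to 36). All 9 members without a C2H2 pattern lay outside domains, as did 199 of all 226 members. Genes in domains were 34.9 kb long in the median (4.41 to 81.6 kb) and those outside 24.1 kb (0.966 to 467.8 kb). The ranges overlapped widely.

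Among clustered genes, promoters in domains held fewer CG dinucleotides, which is given as a description with no test. A RefSeq promoter was matched for 187 members. The median number of CG in 250 bases was 10 for clustered members in domains (n = 23) and 21 for clustered members outside (n = 79). For single members it was 23.5 in domains (n = 2) and 19 outside (n = 83), and the 2 single values, 22 and 25, lay within the range outside. The ZNF722 and ZNF282 promoters printed above are examples of the clustered contrast, and ZNF18 of a CG-rich single gene in a domain. Over all 35116 promoters of the RefSeq table the median was 11, close to that of clustered members in domains and below that of clustered members outside. These promoters outnumber the 20046 protein-coding genes, while each matched member gave a single promoter, so the sets are not alike. Of the 24 clustered members in domains only 11 lay outside chromosome 7, and the CG contrast was not recomputed without that chromosome.

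Of the related zinc finger genes on the same chromosomes, over 4 groups of symbols outside the rule, 7 of 58 (12.1%) started in a domain in each library, where 2.56 to 2.81% of all genes did. These are not independent of the members: ZFP2, ZNF354A, ZNF354B, ZNF354C, ZNF33A and ZNF37A lay in the chromosome 5 and chromosome 10 domains described above. ZSCAN genes, which carry a SCAN dimerisation domain, had 0 of 14. ZKSCAN genes had 1 of 7 (ZKSCAN2), ZFP genes 1 of 12 (ZFP2), and ZNF genes with letters after the number 5 of 25 (ZNF33A, ZNF37A, ZNF354A, ZNF354B and ZNF354C). In every group the count was the same in control and RAB5A.

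Of 20 genes for the H3K9me3 machinery, on all chromosomes, 2 started in a domain with ab176916 (10%) and 3 with ab8898 (15%). Over all 20046 protein-coding genes of all chromosomes the share was 7.19% in control ab176916, 7.56% in control ab8898, 7.20% in RAB5A ab176916 and 8.14% in RAB5A ab8898. SUV39H1, a methyltransferase of pericentromeric chromatin, and ATRX, a chromatin remodeller of heterochromatin, both on the X chromosome, did so in all 4 libraries. So did 70.2 to 86.8% of all protein-coding genes of that chromosome, depending on the library. TRIM28, at the end of chromosome 19, did so in the ab8898 library of each condition and in neither ab176916 library. Of all chromosome 19 genes, 25.8 to 26.96% started in a domain, depending on the library. The remaining genes of the list, SETDB1 among them, started in no domain.

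The zinc finger genes of chromosome 19, chosen by the same symbol rule, were in domains far more often. There 187 of 240 (77.9%) started in a domain with ab176916 and 191 (79.6%) with ab8898, in either condition. The share exceeded that of the members by 66.8 points (SD 0.962, n = 4, exact two-sided sign-flip test, p = 0.125, the smallest possible). The background was also higher on chromosome 19, where 25.8 to 26.96% of its genes as a whole lay in a domain. On the chromosomes of the members the background was 2.56 to 2.81%. Both backgrounds include the zinc finger genes themselves, and the difference of 66.8 points was not adjusted for them. The KRAB pattern went with a higher share on chromosome 19 too, with 158 of 178 genes (88.8%) in a domain in all 4 libraries against 29 of 62 without it (46.8%). On the other autosomes even the most frequently called class, clustered genes with the KRAB pattern, stood at 31.3%, below the chromosome 19 genes without it.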

How the data were processed

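H3K9me3 ChIP-seq was performed in control and RAB5A cells with 2 antibodies each, and the 2 input libraries were not analysed here. The authors trimmed reads with Trimmomatic 0.39, aligned them to hg38 with BWA 0.7.17-r1188, marked duplicates with Picard 2.22, filtered with SAMtools 1.9 (mapping quality at least 1) and called domains in each library with EDD, a caller of broad domains over input, using 200 kb bins, a gap penalty of 25 and an informative fraction of 0.98. The gap penalty decides whether neighbouring stretches join, so a gene outside a domain may still carry local H3K9me3. The deposited lists give positions and a score per domain, with no unit; the score was used for ranks and filters. The lists hold no counts, so the read depth per library is not known here, and the study's methods state only an average over samples.

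Transcription starts came from GENCODE 44. The lists were compared in Python 3.11.15 with NumPy 2.4.6, and calls and tests were tested on simulated data. Libraries were the unit of every exact permutation or sign-flip test. Replicate numbers mark the antibody, as the labels state, which pairs the libraries across conditions. Members and gene lists were chosen with earlier results of these data known. Genes were named where they were single and in a domain, belonged to a locus with a gene in a domain or to the 3 largest loci outside, or lay at the 500 kb limit. Protein patterns came from translated GENCODE transcripts and promoters from RefSeq (GRCh38.p14). The alternatives changed the call rule, the domain filters, the cluster limit, the symbol rule and the libraries used.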

Additional observations from a re-analysis of the deposited data

How the results depend on the processing

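Over 17 alternative settings, 90 of 100 recomputed values were counted as the same, and 0 reversed. Such a value stayed within 1.5 times the count, or within the spread between libraries, or kept its side of the test. The last criterion could not fail, because exact sign-flip and permutation tests over so few libraries cannot give a small p-value. The 90 values therefore include large changes in size. Without chromosome 7, members minus all genes fell from 9.26 to 4.15 points, and clustered minus single members from 16.8 to 9.81 points. Leaving out each library in turn gave 16.8 points for clustered minus single members, 0 points for RAB5A minus control, 27 members in every remaining library and 13.8 points for multi-gene minus single-gene loci, each as in the report. This outcome was fixed in advance, because the member calls were identical in all 4 libraries. In the paired analysis (replicate block by antibody) RAB5A minus control was 0 points for the member share and 0 for the contrast of clustered and single members (exact sign-flip test, p = 1, smallest possible 0.5). Clustered minus single members ranged from 9.81 (without chromosome 7) to 19.6 points, with 10.4 points at a 250 kb limit, members minus all genes from 4.15 to 10.1 points, and chromosome 19 minus members from 55.1 to 71.98 points.

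The locus difference was 17.1 points with starts within 200 kb of a domain counted, 7.95 points with domains below the lower quartile of scores removed, 13.6 points with letters after the number allowed, 9.98 points without chromosome 7, 9.77 points with a 250 kb limit, 11.9 points with a 1 Mb limit and 17.1 points with any member of a locus counted. Without chromosome 7, 13 members were in all 4 libraries. Removing domains below the lower quartile left 20 members in each library but control ab8898, which kept 22, and 18 in all 4 libraries. RAB5A minus control was then -0.442 points for the member share and -0.820 points for clustered minus single (exact permutation test, p = 1 for each). That filter dropped the 5 chromosome 1 genes in all 4 libraries, ZNF454 and ZNF879 in control ab176916, and ZNF248 and ZNF25 in both RAB5A libraries. All values rest on domain calls at 200 kb bins, and signal below the threshold of the caller cannot be seen in these lists.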
